A study of Mus musculus with 30 samples.

Results

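Collagens and other extracellular matrix genes were followed in fetal mouse liver and lung after maternal exposure to perfluorooctane sulfonate (PFOS), a persistent fluorinated surfactant. The members were given as a list of 40 genes, chosen by name: 6 fibrillar collagens, 13 basement membrane genes, 8 elastic fibre genes, 7 other collagens and 6 matrix glycoproteins and proteoglycans. Of these, 38 had a probe set with a single gene symbol among the 18193 genes of the array, and Fbn1 and Loxl2 were not analysed here. Pregnant mice of the outbred CD-1 stock were dosed daily by gavage from gestation day 1 to 17 with 0, 5 or 10 mg/kg/day of PFOS as its potassium salt, and the unexposed dams received the same vehicle, 0.5% Tween 20. Fetal liver and fetal lung were taken on gestation day 18, and each litter is a pool of RNA from 3 fetuses. Each of the 6 groups, liver or lung at 1 of the 3 doses, had 5 litters with 1 array each. A pool of 3 fetuses gives no view of the spread within a litter, and whether a litter gave both its liver and its lung is not stated in the labels. The comparisons ask how each tissue differed with dose and whether liver and lung differed in that.

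The matrix around cells is built from collagen fibres, sheet-like basement membranes, elastic fibres and the glycoproteins that link them to cells. Fibrillar collagens are made mostly by fibroblasts and, in liver, by stellate cells and portal mesenchyme, whereas basement membrane proteins are also made by epithelium and endothelium. Elastic fibres form when tropoelastin is laid on microfibrils and cross-linked by lysyl oxidases, and in lung they accompany the formation of airspaces. The fetal liver is also the main blood-forming organ and holds little stroma.

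Levels are given as deposited log2 values made with RMA (background correction, normalization between arrays and 1 summary per set of probes), so a difference of 1 is a doubling. A change is the difference between group means on that scale, and adjusted p-values are from limma with the Benjamini-Hochberg method over all genes tested in the same fit. Testing in a tissue needed a level higher than the 40th percentile of the array in 5 or more of its 15 arrays, and calls were made at an adjusted p below 0.05. By that filter 35 members were tested in liver and 37 in lung. Col11a1, a minor fibrillar chain known from cartilage, was too dim in both tissues, and the type IV chains Col4a3 and Col4a4 were too dim in liver.

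The arrays bore out the tissue labels: Alb, serum albumin, lay between 13.82 and 13.89 on the liver arrays and between 11.22 and 13.17 on the lung arrays, and Sftpc, surfactant protein C, between 13.52 and 13.61 in lung and between 4.22 and 6.77 in liver. Unexposed liver litters 2, 3 and 5 stood apart in other genes. Cym, the digestive protease chymosin, was at 11.27, 9.50 and 8.20 there and at 5.05 and 5.28 in unexposed litters 1 and 4, and Actg2, a smooth muscle actin, was at 6.80, 6.04 and 7.31 against 5.15 and 4.92. The 10 exposed livers had Cym between 4.23 and 5.60. Genes called in liver against unexposed litters were therefore also refitted without those 3 litters, a choice made after the data were seen, which leaves 2 unexposed livers.

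Without PFOS, most matrix genes were far lower in liver than in lung. Of 38 members compared, 33 were lower in liver and 4 were higher at an adjusted p under 0.05, beside 40.3% lower and 42.6% higher among all 13879 genes compared. The median difference of the members, liver minus lung, was -2.73, and that of all genes was 0.04. The litters of both tissues did not overlap for 31 members that were lower in liver and 2 that were higher. Over all genes compared, 35.0% lay apart in this way as lower in liver and 34.8% as higher. In these bulk samples, fewer cells of a type and less RNA per cell cannot be told apart.

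**Figure D1:**
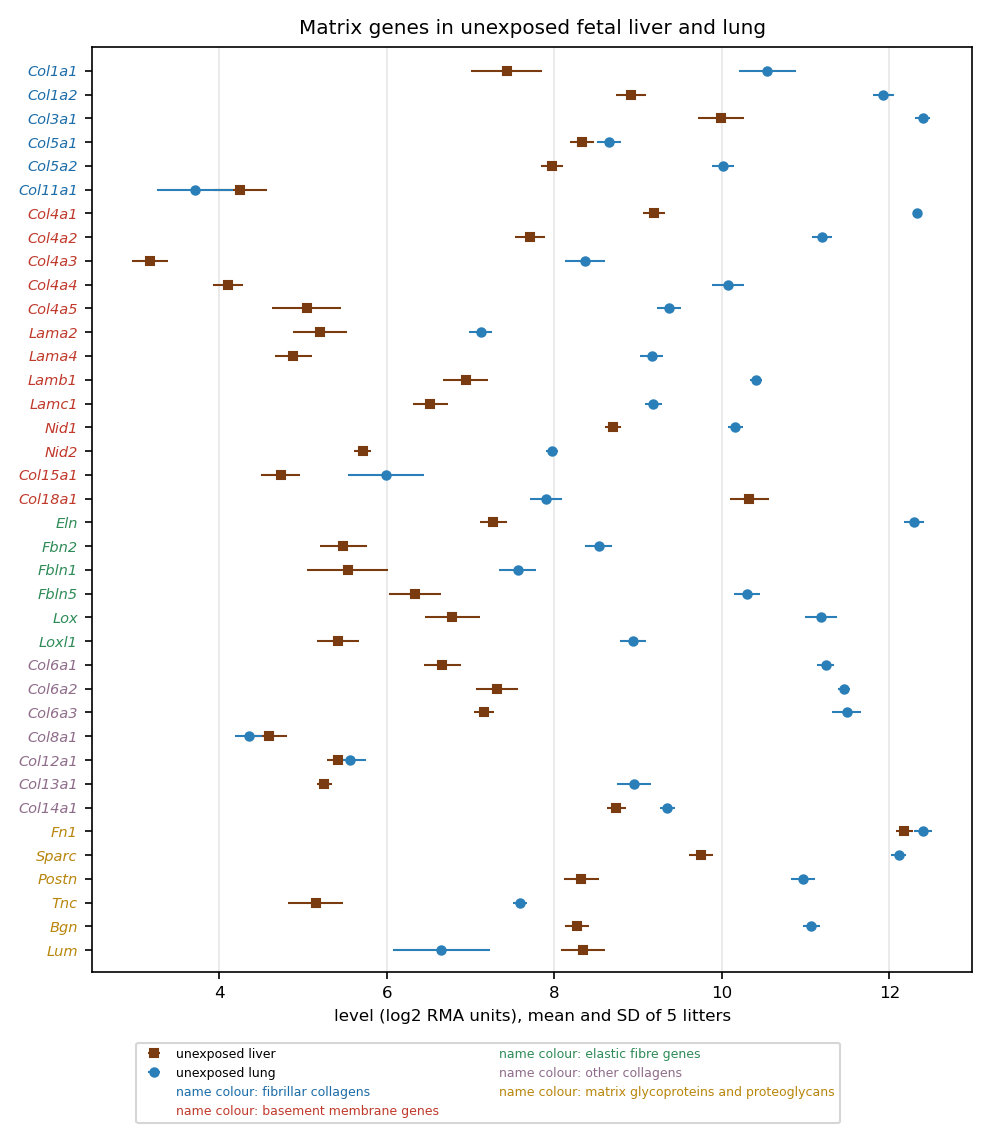
Mean level (log2 RMA units) of the 38 members in unexposed liver (squares) and lung (circles), with bars for the SD of 5 litters and gene names coloured by class. Points of liver lie left of those of lung for 34 members, and Col18a1 and Lum stand out on the other side; levels of different genes come from different probes and are not to be compared.

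Basement membrane genes held the 2 largest differences, those of the type IV collagen chains Col4a4 and Col4a3, whose liver levels were close to background. Col4a4, which forms the specialised basement membrane network of lung and kidney together with Col4a3 and Col4a5, was at 4.10 ± 0.18 (SD, n = 5) in liver and 10.07 in lung, a difference of -5.97 (SE 0.12, limma adjusted p = 4.33e-26). Col4a3 differed by -5.20 (SE 0.18) and Col4a5 by -4.34 (SE 0.15). Col4a3 and Col4a4 were mostly below the 40th percentile in liver (above it on 0 and 3 of 15 arrays). The ubiquitous chains Col4a1 and Col4a2 differed by -3.14 and -3.49. Among laminin chains, Lama4 differed by -4.28, Lamb1 by -3.47, Lamc1 by -2.66 and Lama2 by -1.92, and the laminin-binding nidogens Nid1 and Nid2 by -1.46 and -2.25. The pair of basement membrane collagens that carry sugar chains went separate ways: Col15a1 was lower in liver by 1.27 on the log2 scale, and Col18a1, whose fragment is endostatin and which hepatocytes are known to make, was higher by 2.44 (SE 0.12, 5.42-fold, adjusted p = 1.40e-17), at 10.33 in liver and 7.90 in lung.

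All 6 measured elastic fibre genes were lower in liver. Eln, tropoelastin, was at 7.27 ± 0.16 (SD, n = 5) in liver and 12.30 ± 0.12 in lung, a 32.7-fold gap (-5.03, SE 0.09, adjusted p = 2.05e-27). Lox and Loxl1, the cross-linking oxidases, differed by -4.40 and -3.52, Fbln5 and Fbln1, fibulins of elastic fibres, by -3.97 and -2.03, and the microfibril protein Fbn2 by -3.05. The 3 chains of type VI collagen, a beaded filament of interstitial matrix, differed by -4.58 (Col6a1), -4.15 (Col6a2) and -4.33 (Col6a3), and Col13a1, a transmembrane collagen, by -3.70. Fibrillar collagens differed less evenly: Col1a1 by -3.11, Col1a2 by -3.01, Col3a1 by -2.40 and Col5a2 by -2.04, but Col5a1 by only -0.31 (SE 0.09, adjusted p = 0.00179), with litters of both tissues overlapping.

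Some matrix genes were close to equal in the tissues. Fn1, fibronectin, which the liver also secretes into plasma, differed by -0.21 (SE 0.07, adjusted p = 0.00652). That call was lost without unexposed livers 2, 3 and 5 (-0.16, adjusted p = 0.112), and a second Fn1 probe set differed by -1.48, so that the average of both gave -0.85 (adjusted p = 7.42e-10). Col14a1, a collagen found on the surface of fibrils, differed by -0.61, and Col12a1, a relative of it, by -0.15 (SE 0.10, adjusted p = 0.181). Sparc, a collagen-binding glycoprotein, differed by -2.36, Postn, periostin, by -2.64, Tnc, tenascin C, by -2.44 and the small proteoglycan Bgn by -2.80. Lum, lumican, a proteoglycan that spaces collagen fibrils, was higher in liver by 1.69 (SE 0.35, adjusted p = 8.25e-05). Col11a1 and Col8a1 were higher in liver by 0.54 (adjusted p = 0.0457) and 0.24 (adjusted p = 0.0430), with overlapping litters, both near the 40th percentile, and neither was called without unexposed livers 2, 3 and 5 (adjusted p = 0.101 and 0.527). Neither was called when unexposed liver litter 2, unexposed lung litter 2 or unexposed lung litter 4 was left out: without each in turn, Col11a1 had adjusted p = 0.126, 0.0953 and 0.165, and Col8a1 0.190, 0.0737 and 0.148. Col11a1 was also not called without unexposed liver litter 1 or 4 (adjusted p = 0.0903 and 0.0555), nor Col8a1 without unexposed liver litter 3 (0.0606).

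In fetal liver at 10 mg/kg/day, 4 of 35 tested members fell and 1 rose. Those that fell were Col4a5, Col14a1, Lox and Col1a2, by 0.93, 0.35, 0.56 and 0.32 on the log2 scale, and Lamc1 rose by 0.36. Over all 13269 genes tested in liver, 5.22% fell and 5.30% rose in that comparison, so 4 of 35 is 11.4% against a background of 5.22%, and 1 of 35 is 2.86% against 5.30%. At 5 mg/kg/day 2 members fell, Col4a5 by 1.02 and Lox by 0.48, and none rose, with 1.81% of all genes falling and 4.26% rising; 3 fell when unexposed litter 4 was left out. Both doses share the same unexposed litters. Col4a5, counted among the members that fell at both doses, passed the liver filter only with the help of its unexposed litters. Such a filter favours genes that fall, so the shares that fell are to be read with that limit. No member differed between 10 and 5 mg/kg/day, where 0.00754% of all genes, a single gene, did; 1 member, Lamb1, had an unadjusted p under 0.05, and 1 member was called when litter 4 at 10 mg/kg/day was left out.

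**Figure D2:**
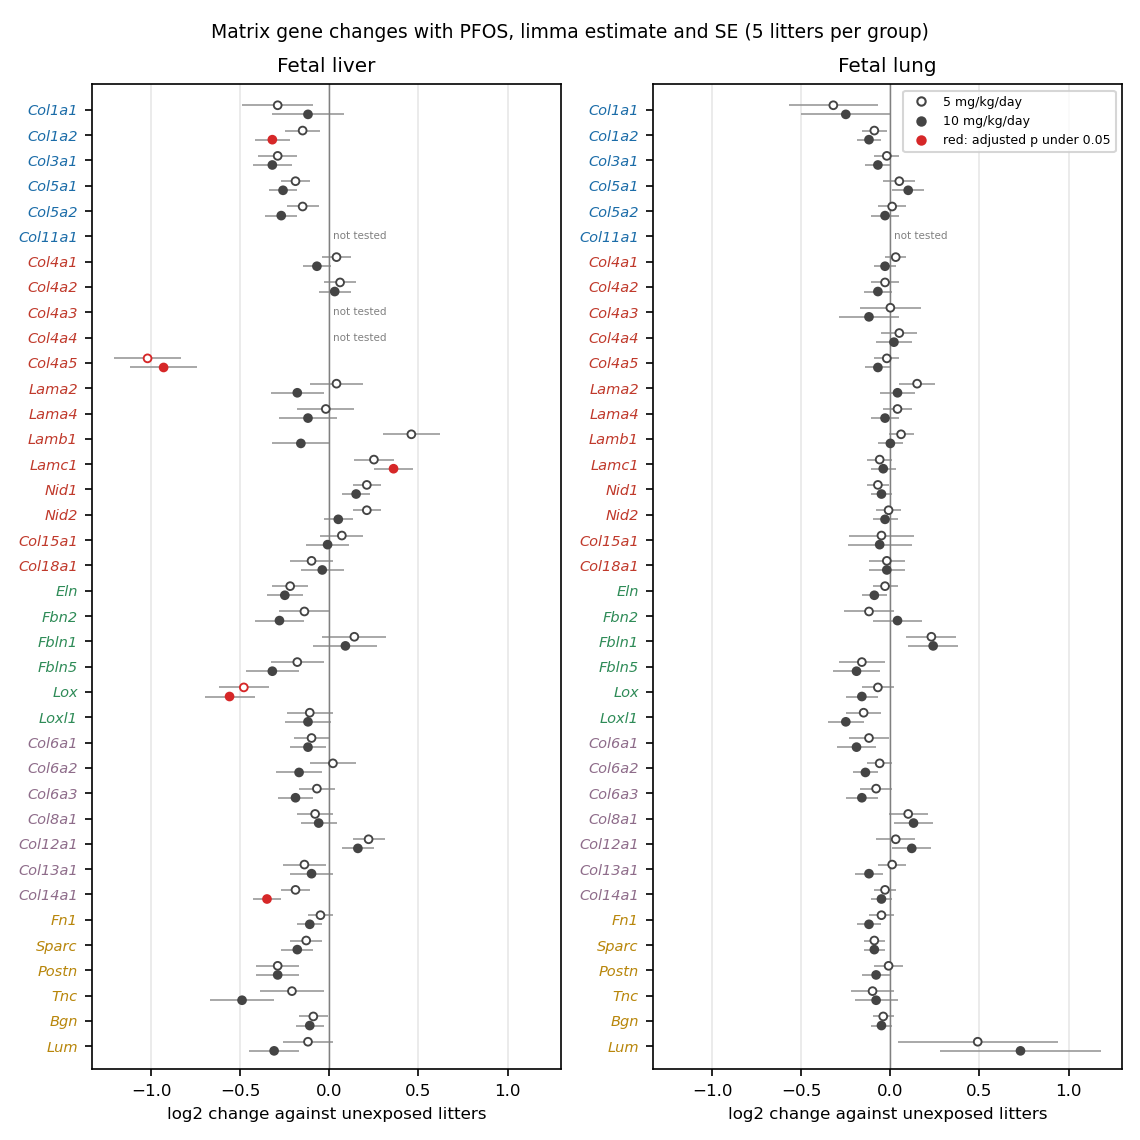
Change of each member on the log2 scale against unexposed litters in fetal liver (left) and lung (right), at 5 (open) and 10 (filled) mg/kg/day, with bars for the limma SE, 5 litters per group and red for an adjusted p under 0.05. In liver most points lie left of 0 and Col4a5 lies farthest left; in lung no point is red and Lum lies farthest right.

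Without unexposed litters 2, 3 and 5, no member was called in liver at either dose, and calls over all genes went from 1395 to 538 at 10 mg/kg/day and from 805 to 303 at 5 mg/kg/day. The changes at 10 mg/kg/day were then -0.56 for Col4a5, -0.34 for Col14a1, -0.34 for Lox, -0.15 for Col1a2 and 0.47 for Lamc1, with adjusted p from 0.105 to 0.556. At 5 mg/kg/day Col4a5 was at -0.65 (adjusted p = 0.178) and Lox at -0.26 (adjusted p = 0.390). In what follows the 2 doses of PFOS are called the lower and the higher dose.

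Col4a5, an X-linked type IV chain, had the largest change. Its levels in unexposed livers were 4.34, 5.38, 5.22, 5.00 and 5.25 in litters 1 to 5. They were 3.88, 4.42, 3.56, 4.12 and 4.10 at the lower dose, and 3.98, 3.86, 4.26, 4.03 and 4.42 at the higher dose. All 10 exposed litters were below the unexposed mean, but unexposed litter 1 lay among them. By limma it fell by 1.02 (2.03-fold, SE 0.19, adjusted p = 0.00310) at the lower and by 0.93 (1.90-fold, SE 0.19, adjusted p = 0.00371) at the higher dose. The 40th percentile lay between 4.16 and 4.23, so the exposed litters were at about that level, and Col4a5 was above it on 8 of 15 liver arrays. These were all 5 unexposed arrays, 1 at the lower dose and 2 at the higher dose. In liver Col4a5 thus passed the filter only with the help of its unexposed litters, and such a filter favours genes that fall. A second Col4a5 probe set averaged 4.40, 4.12 and 4.71 at 0, 5 and 10 mg/kg/day, and with the probe sets averaged the change at the higher dose was -0.31 (adjusted p = 0.235).

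Lox, the lysyl oxidase that starts cross-linking of collagen and elastin, was at 6.55, 7.34, 6.61, 6.56 and 6.82 in unexposed litters 1 to 5. It was at 6.27, 6.22, 6.05, 6.53 and 6.40 at the lower dose and at 5.99, 6.11, 6.27, 6.32 and 6.38 at the higher dose. Every exposed litter was below every unexposed one at both doses, which held for 2.77% of all genes at the lower dose and 4.41% at the higher dose. The change was -0.48 (SE 0.14, adjusted p = 0.0493) and -0.56 (SE 0.14, adjusted p = 0.0155). A second Lox probe set, above the 40th percentile on all arrays, changed by -0.57 and -0.58, and the other one, above that percentile on 0 liver arrays, by 0.23 and 0.10. The average of all 3 changed by -0.27 (adjusted p = 0.161) and -0.35 (adjusted p = 0.0523), neither of which passed. At the lower dose the call was lost (adjusted p from 0.0521 to 0.111) when unexposed litter 2, 3 or 5 or exposed litter 1, 2, 3 or 5 was left out.

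Col14a1 was at 8.69, 8.81, 8.85, 8.78 and 8.58 in unexposed litters, at 8.42, 8.72, 8.46, 8.67 and 8.49 at the lower dose and at 8.50, 8.28, 8.29, 8.54 and 8.35 at the higher dose. Its litters at the higher dose lay entirely below the unexposed ones, and those at the lower dose lay between and overlapped both. The change was -0.19 (SE 0.08, adjusted p = 0.186) and -0.35 (SE 0.08, adjusted p = 0.00921). Both of its other probe sets changed the same way at the higher dose, by -0.17 and -0.21, and their average with the first gave adjusted p = 0.0829.

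Col1a2, which joins with Col1a1 in type I collagen, was at 8.81, 9.18, 8.94, 8.69 and 8.96 in unexposed litters. At the lower dose it was at 8.46, 8.93, 8.78, 8.90 and 8.76, and at the higher dose at 8.48, 8.67, 8.66, 8.50 and 8.66. At the higher dose all litters lay just below the lowest unexposed litter, and at the lower dose the groups overlapped. The change was -0.15 (SE 0.10, adjusted p = 0.434) and -0.32 (SE 0.10, adjusted p = 0.0458). The call at the higher dose was lost in 9 of 10 fits that left out 1 litter, all but that without unexposed litter 4, with adjusted p from 0.0528 to 0.115.

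Lamc1, the gamma chain shared by most laminins, was at 6.65, 6.61, 6.70, 6.17 and 6.46 in unexposed litters, at 6.98, 6.94, 6.51, 6.87 and 6.55 at the lower dose and at 7.01, 6.78, 6.94, 6.76 and 6.93 at the higher dose. At the higher dose all litters were above all unexposed ones, as were 4.63% of all genes. The change was 0.25 (SE 0.11, adjusted p = 0.220) and 0.36 (SE 0.11, adjusted p = 0.0478). This call too was lost in 9 of 10 fits without 1 litter, all but that without unexposed litter 3 (adjusted p from 0.0518 to 0.112), and it had adjusted p = 0.0571 with the replicate number as a block.

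**Figure D3:**
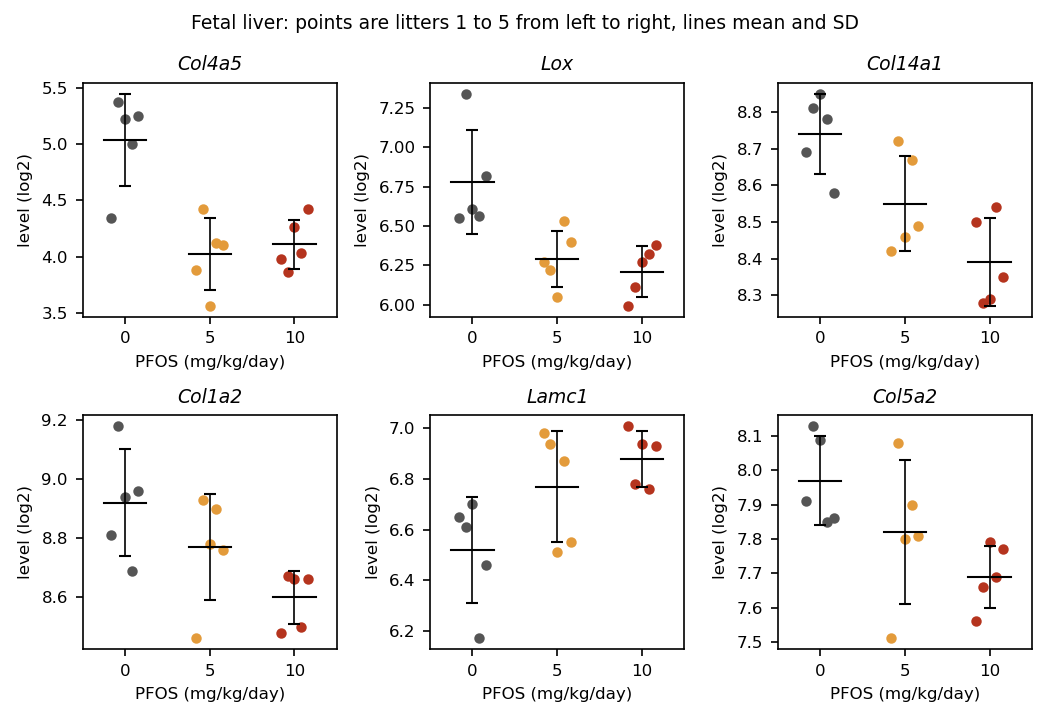
Level (log2) of the 5 called members and of Col5a2 in each fetal liver litter at 0, 5 and 10 mg/kg/day, with the mean and SD of 5 litters. Exposed litters at 10 mg/kg/day lie wholly below the unexposed ones for Lox, Col14a1, Col1a2 and Col5a2 and wholly above them for Lamc1; for Col4a5 unexposed litter 1 lies among the exposed.

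Of the called members, Col1a2 and Col4a5 had a promoter in the RefSeq table used (GRCm38.p6). The 250 bases before each start are shown because these genes fell in the same livers while belonging to different matrix classes; capitals mark CCAAT and GGGCGG, the letters of the CCAAT box and the GC box, which were searched on both strands (ATTGG and CCGCCC) and do not overlap each other. The windows are chr6:4505368-4505617 and chrX:141475169-141475418, both on the plus strand.
Col1a2: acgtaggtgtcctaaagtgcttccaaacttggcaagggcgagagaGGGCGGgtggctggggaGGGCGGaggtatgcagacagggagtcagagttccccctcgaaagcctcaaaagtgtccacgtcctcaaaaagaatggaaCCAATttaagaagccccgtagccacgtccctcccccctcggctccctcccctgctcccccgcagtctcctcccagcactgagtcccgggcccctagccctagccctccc
Col4a5: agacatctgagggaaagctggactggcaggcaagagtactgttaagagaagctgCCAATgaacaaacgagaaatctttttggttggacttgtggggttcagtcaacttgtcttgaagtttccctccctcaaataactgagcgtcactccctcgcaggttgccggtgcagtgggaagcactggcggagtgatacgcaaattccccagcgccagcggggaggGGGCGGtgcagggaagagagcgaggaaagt
Col1a2 holds CCAAT at 109 bases before the start and GGGCGG at 205 and 188, and Col4a5 holds CCAAT at 196 and GGGCGG at 30. Of 32851 such windows in the table, 33.8% hold a CCAAT box and 32.7% a GC box. Of the 30 windows of 24 members, 9 and 16 do. A match of letters is a description and not a measured site.

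The other fibrillar collagens lay below 0 in liver without passing the test. All 5 tested members of the class had a negative change at both doses, with a median of -0.19 and -0.27, beside a median of -0.01 and -0.02 over all genes. Col3a1, type III collagen, was at 9.88, 10.38, 10.11, 9.66 and 9.93 in unexposed litters, at 9.55, 9.95, 9.62, 9.75 and 9.62 at the lower dose and at 9.66, 9.60, 9.63, 9.60 and 9.86 at the higher dose. All its exposed litters were below the unexposed mean, and the groups overlapped (-0.29, adjusted p = 0.147, and -0.32, adjusted p = 0.0837). Col5a1, a chain of the collagen that starts fibrils, was at 8.47, 8.25, 8.50, 8.23 and 8.22 without PFOS, at 8.32, 8.11, 8.28, 7.96 and 8.08 at the lower dose and at 8.05, 8.09, 8.03, 7.97 and 8.25 at the higher dose (-0.26, SE 0.08, adjusted p = 0.0601 at the higher dose). Its partner chain Col5a2 differed by -0.27 (adjusted p = 0.0733) at the higher dose with litters that did not overlap. Col1a1 differed by -0.29 (adjusted p = 0.460) at the lower dose and by -0.12 (SE 0.20, adjusted p = 0.783) at the higher dose, the class's smallest change there, with unexposed litters from 6.77 to 7.84. A second Col1a1 probe set, above the 40th percentile on all 15 liver arrays, changed by -0.01 and 0.01. At the higher dose the other probe sets of Col3a1, Col5a1 and Col5a2 changed by -0.47, by -0.20 and -0.21, and by -0.29.

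Among 11 tested basement membrane genes, values pointed both ways: 8 changes were above 0 at the lower dose and 4 at the higher dose. Lamb1, a laminin beta chain, was at 6.66, 7.24, 6.66, 7.08 and 7.07 in unexposed litters, at 7.57, 7.35, 7.11, 7.51 and 7.48 at the lower dose and at 6.66, 6.55, 6.56, 7.43 and 6.69 at the higher dose. It was highest in the middle dose group, with changes of 0.46 (SE 0.16, adjusted p = 0.107) and -0.16 (adjusted p = 0.610), and 10 against 5 mg/kg/day differed by -0.62 (SE 0.16, adjusted p = 0.412). Nid1 was at 8.61, 8.68, 8.82, 8.65 and 8.76 without PFOS, at 9.25, 8.85, 8.85, 8.84 and 8.78 at the lower dose and at 8.82, 8.90, 8.87, 8.81 and 8.86 at the higher dose (0.21, adjusted p = 0.137, and 0.15, adjusted p = 0.276). Nid2 was at 5.78, 5.66, 5.59, 5.70 and 5.84 without PFOS, at 5.84, 5.86, 6.08, 6.06 and 5.78 at the lower dose and at 5.95, 5.71, 5.62, 5.75 and 5.81 at the higher dose (0.21, adjusted p = 0.134, and 0.05). Every exposed litter exceeded the unexposed mean for Nid1 at both doses and for Lamb1 and Nid2 at the lower dose, and none of these passed the test. Col4a1 and Col4a2, neighbours in the genome, stayed between -0.07 and 0.06, Lama2, Lama4, Col15a1 and Col18a1 between -0.18 and 0.07.

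The remaining elastic fibre genes, collagens and glycoproteins did not pass the test in liver. Eln differed by -0.22 and -0.25 (adjusted p = 0.209 and 0.118), Fbn2 by -0.14 and -0.28, Fbln5 by -0.18 and -0.32, Loxl1 by -0.11 and -0.12 and Fbln1 by 0.14 and 0.09. Type VI chains at the higher dose differed by -0.12, -0.17 and -0.19 for Col6a1, Col6a2 and Col6a3, Col8a1 by -0.06, Col13a1 by -0.10 and Col12a1 by 0.16. Tnc, a glycoprotein of remodelling tissue, was at 4.63, 5.54, 5.12, 5.14 and 5.29 in unexposed litters, at 4.55, 5.07, 5.04, 5.49 and 4.52 at the lower dose and at 4.63, 4.83, 4.67, 4.79 and 4.37 at the higher dose. Its groups overlapped at both doses. At the higher dose unexposed litter 1 alone lay among the exposed litters, and at the lower dose exposed litter 4 also exceeded unexposed litters 1, 3, 4 and 5 (changes of -0.21, adjusted p = 0.577, and -0.49, SE 0.18, adjusted p = 0.105). At the higher dose Postn differed by -0.29, Lum by -0.31, Sparc by -0.18, and Fn1 and Bgn by -0.11 each.

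Counted by litter, most tested members lay below the unexposed mean in each of the 5 livers at the higher dose. Of 35 tested members, 24, 31, 29, 24 and 23 were below it in litters 1 to 5, with median deviations of -0.14, -0.22, -0.20, -0.20 and -0.08, while the median over all genes ran from -0.03 to -0.01. At the lower dose 17, 15, 26, 19 and 28 members were below it, so litters 3 and 5 had as many as litters of the higher dose and litters 1 and 2 had fewer. Unexposed litters 1 to 5 themselves had 24, 8, 10, 27 and 20 members below it, with median deviations of -0.10, 0.17, 0.12, -0.11 and -0.01. Unexposed litters 1 and 4 thus lay inside the range of the higher dose. The unexposed litters with fewer members below the mean were 2, 3 and 5, those high in Cym. Over members, 24 of 35 changes were negative at the lower dose and 29 of 35 at the higher dose, beside 54.0% and 56.5% of all genes. These members share arrays and cells and are not independent of each other.

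Genes that process or bind matrix, taken from lists of textbook members, are set here beside the 5.30% of all genes that rose and the 5.22% that fell in liver at the higher dose. Of 19 tested collagen processing enzymes, 2 rose and 2 fell (10.5% each) at the higher dose. P3h4, a partner of the collagen prolyl and lysyl hydroxylases, went from 5.01 to 5.92 (0.91, SE 0.18, adjusted p = 0.00345), and Pcolce2, an enhancer of procollagen C-proteinase, from 7.42 to 8.15 (0.72, SE 0.10, adjusted p = 0.000172). Its relative Pcolce moved the other way, from 7.13 to 6.47 (-0.65, SE 0.07, adjusted p = 2.1e-05), and so did Ppib, a collagen-folding isomerase (-0.37). P3h4, Pcolce2 and Pcolce had passed at the lower dose too, at 0.70, 0.64 and -0.51, and at the higher dose they also passed without unexposed litters 2, 3 and 5 (1.10, 0.76 and -0.67; adjusted p = 0.0113, 0.00462 and 0.00147), as did Ppib (-0.38, adjusted p = 0.0291). The lower-dose call of P3h4 was lost without those litters (adjusted p = 0.0504) and in 6 of 10 fits without 1 litter (unexposed 1, 4 or 5, exposed 2, 4 or 5; up to 0.0699).

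Of 18 tested matrix proteases and inhibitors, 3 (16.7%) fell and none rose at the higher dose: the aggrecanase-type proteases Adamts9 (-0.46, adjusted p = 0.00553) and Adamts5 (-0.44, adjusted p = 0.00573) and the inhibitor Timp2 (-0.27, adjusted p = 0.0344). Of 16 integrin and collagen receptor genes, 1 fell, the collagen-binding receptor kinase Ddr1 (-0.34, adjusted p = 0.00804), a share of 6.25% close to that of all genes. Of 20 genes of the TGF-beta pathway, 2 (10.0%) fell, the receptor Tgfbr2 (-0.27, adjusted p = 0.0110) and the target Tgfbi, itself a matrix protein (-0.65, adjusted p = 0.0221). Of 26 other matrix genes, 3 (11.5%) fell, Efemp1 (-0.71), Ecm1 (-0.53) and Dcn, decorin (-0.31), and 2 (7.69%) rose, the laminin chain Lamb3 (0.68) and the basement membrane proteoglycan Hspg2, perlecan (0.26). At the lower dose, 1, 0, 0 and 2 genes of these 4 lists fell and none rose, beside 1.81% of all genes falling and 4.26% rising. These were Adamts5 (-0.33), the microfibril protein Mfap4 (-0.42) and Ecm1 (-0.49). None of them passed at that dose without unexposed litters 2, 3 and 5 (adjusted p = 0.383, 0.468 and 0.135). The lower-dose call of Adamts5 was lost in 8 of 10 fits without 1 litter (adjusted p up to 0.12). These counts rest on few genes per list.

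None of the 11 genes of these 4 lists called at the higher dose passed there without unexposed litters 2, 3 and 5, which leaves 2 unexposed livers. Their changes were then -0.50 for Adamts9, -0.37 for Adamts5, -0.26 for Timp2, -0.37 for Ddr1, -0.31 for Tgfbr2, -0.65 for Tgfbi, -0.81 for Efemp1, -0.49 for Ecm1, -0.25 for Dcn, 0.54 for Lamb3 and 0.20 for Hspg2, with adjusted p from 0.0552 to 0.394. With probe sets averaged, calls were lost for Ddr1 (-0.08, adjusted p = 0.464), Tgfbr2 (-0.11, adjusted p = 0.223), Timp2 (-0.14, adjusted p = 0.105), Dcn (-0.11, adjusted p = 0.479) and Hspg2 (0.18, adjusted p = 0.112). Leaving out 1 litter ended the call of Timp2 in 5 of 10 fits (unexposed 1, 2 or 3, exposed 3 or 5; adjusted p up to 0.0945) and that of Efemp1 in 7 (unexposed 1, 3, 4 or 5, exposed 2, 4 or 5; up to 0.112). It ended that of Hspg2 in 7 (unexposed 1, 2, 3 or 5, exposed 1, 3 or 5; up to 0.114), that of Lamb3 in 3 (unexposed 2, 4 or 5; up to 0.0538) and that of Tgfbi in 2 (unexposed 2 or exposed 3; up to 0.0567).

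Several marker genes of stromal, muscle and other cells differed in the same livers, beside 5.22% of all genes falling at the higher and 1.81% at the lower dose. The summed level of 8 smooth muscle markers, Actg2 among them, was 10.17, 9.77 and 10.20 in unexposed litters 2, 3 and 5 and 9.51 and 9.28 in litters 1 and 4. It ran from 9.19 to 9.56 at the lower dose and from 9.17 to 9.80 at the higher dose, so litters 1 and 4 lay inside the exposed range. Of these 8, 2 had changes above 0 at each dose, Des among them (0.23 and 0.32). Tagln, a smooth muscle actin-binding protein, was the 1 called lower at each dose (-0.42 and -0.35). Without unexposed litters 2, 3 and 5 it was not called (-0.16 and -0.09, adjusted p = 0.527 and 0.731). Its calls were also lost without unexposed litter 2, 3 or 5 alone, without exposed litter 1 or 5 at the lower dose and without exposed litter 1, 2, 3 or 4 at the higher dose (adjusted p up to 0.0669 and 0.113).

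The sum of 12 mesenchyme and fibroblast markers ran from 10.16 to 10.59 without PFOS, from 9.88 to 10.23 at the lower dose and from 9.91 to 10.39 at the higher dose. Of 7 tested, Mfap4, a microfibril protein, fell at the lower dose (-0.42) and the receptor Pdgfra (-0.32) and the factor Tcf21 (-0.34) at the higher dose, and none of these passed without the 3 unexposed litters (-0.24, -0.28 and -0.19). Twist1, Prrx1, Meox2, Fgf10 and Tbx4 were below the 40th percentile in unexposed liver. Dlk1 was the brightest of the 12, at 9.81 in unexposed liver, so their sum of linear values leans on Dlk1. Its changes were -0.54 and -0.41, neither of them called. The sum of 9 hepatic stellate markers ran from 10.47 to 10.60, from 10.32 to 10.47 and from 10.13 to 10.41. Of the 9, Reln, reelin, was called, falling by 0.28 and 0.44. Without the 3 litters it was at -0.33 (adjusted p = 0.0525) and -0.49 (adjusted p = 0.00353). Reln was the brightest of these markers, at 9.54 in unexposed liver, so the sum of linear values leans on it. At the higher dose 3 of the 9 changes were above 0, those of Rgs5 (0.41), Des (0.32) and Ngfr (0.12), none of them called. Mesothelial Lrrn4 fell at both doses and Msln at the higher dose, 2 of 5 tested, while Upk3b and Upk1b were at 0.03 and 0.09 at the higher dose. Lrrn4 was above the 40th percentile on 5 unexposed livers, 1 at the lower dose and 0 at the higher dose. It thus entered the test through its unexposed litters, and its exposed levels were near background. Msln did not pass without the 3 litters (-0.30, adjusted p = 0.312), and Lrrn4 was not in that test. Of 7 hepatocyte markers, Apoa1 and Ahsg, apolipoprotein A-I and fetuin A, fell at the higher dose, by 0.17 and 0.18; neither passed without the 3 litters (adjusted p = 0.176 and 0.129). Of 4 tested erythroid markers, Hemgn, hemogen, fell at the lower dose by 0.41 (-0.46, adjusted p = 0.0305, without the 3 litters), where all 4 changes were below 0. With 1 litter left out, the lower-dose calls of Mfap4 (unexposed 2, 3 or 5, exposed 2, 3, 4 or 5) and Lrrn4 (unexposed 1, 2, 3 or 4, exposed 2, 3 or 5) and that of Apoa1 (unexposed 2 or 4, exposed 1 or 5) were lost, with adjusted p up to 0.0948, 0.0889 and 0.0601. In 5 other marker lists no gene was called in liver at either dose. These were the endothelial (8 tested), cartilage (6), cardiac muscle (4), skeletal muscle (3) and lung epithelial markers (5). The part of all these markers in the matrix gene results was not tested.

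In fetal lung no member was called at either dose or between doses. Over all 12897 genes tested in lung, 0.0155% were called at the lower dose, 0.0543% at the higher dose and 0.00% between the doses, which is 2, 7 and 0 genes by limma, with 596, 891 and 296 at an unadjusted p under 0.05. Of 37 members, 0, 1 and 0 had an unadjusted p under 0.05. The members' median change was -0.03 at the lower dose and -0.06 at the higher dose, with 25 and 29 of 37 changes below 0, and over all genes the median was 0.00 and 0.01. A p that misses the threshold does not show that a gene stayed the same, but the SE of most lung members was small. For Eln it was 0.07, around changes of -0.03 and -0.09. A second Eln probe set, above the 40th percentile on all 15 lung arrays, changed by -0.29 and -0.42. The chosen probe set alone thus does not show that Eln stayed level in lung.

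Among elastic fibre genes in lung, Loxl1 was the member with an unadjusted p under 0.05. It was at 9.19, 8.75, 8.85, 8.98 and 8.93 without PFOS, at 8.39, 9.02, 8.91, 8.76 and 8.88 at the lower dose and at 8.66, 8.64, 8.63, 8.71 and 8.82 at the higher dose, where all litters were below the unexposed mean (-0.25, SE 0.10, adjusted p = 0.651). Lox was at 11.26, 11.45, 11.13, 10.94 and 11.10 without PFOS, at 11.18, 11.14, 10.94, 11.14 and 11.14 at the lower dose and at 11.15, 11.17, 10.86, 11.01 and 10.91 at the higher dose (-0.16, adjusted p = 0.774). Fbln1 was at 7.85, 7.52, 7.72, 7.34 and 7.37, then at 7.38, 8.21, 7.67, 7.87 and 7.84, and then at 7.88, 7.71, 7.52, 7.92 and 7.99 (0.23 and 0.24, adjusted p = 0.998 and 0.774). The groups of all 3 genes overlapped. Fbln5 was at 10.45, 10.44, 10.33, 10.11 and 10.17 without PFOS and at 10.06, 10.37, 10.37, 9.73 and 10.16 at the lower dose, with a change of -0.16 there and -0.19 at the higher dose.

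The type VI collagen chains had the next smallest p-values in lung at the higher dose. Col6a1 was at 11.36, 11.14, 11.31, 11.28 and 11.13 without PFOS and at 11.02, 11.07, 10.98, 11.33 and 10.85 at the higher dose (-0.19, SE 0.11, adjusted p = 0.774). Col6a2, its neighbour in the genome, was at 11.47, 11.48, 11.54, 11.44 and 11.35 without PFOS and at 11.33, 11.36, 11.39, 11.39 and 11.11 at the higher dose (-0.14, SE 0.07, adjusted p = 0.720). Col6a3 was at 11.77, 11.33, 11.38, 11.52 and 11.44 without PFOS and at 11.30, 11.44, 11.26, 11.33 and 11.30 at the higher dose (-0.16, SE 0.09, adjusted p = 0.757). The groups overlapped for each chain, and at the lower dose the changes were -0.12, -0.06 and -0.08.

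Col1a2 in lung was at 12.14, 11.91, 11.86, 11.91 and 11.82 without PFOS, at 11.60, 11.96, 11.87, 11.90 and 11.85 at the lower dose and at 11.85, 11.87, 11.72, 11.78 and 11.81 at the higher dose (-0.09 and -0.12, adjusted p = 0.998 and 0.787). Lama2, the laminin chain of muscle, was at 7.11, 7.16, 7.27, 7.17 and 6.90 without PFOS and at 7.24, 7.42, 7.27, 6.91 and 7.52 at the lower dose (0.15, adjusted p = 0.998). Sparc was at 12.23, 12.06, 11.99, 12.14 and 12.13 without PFOS and at 12.01, 12.13, 12.09, 12.01 and 11.87 at the lower dose (-0.09, adjusted p = 0.998). These groups overlapped too. Col4a5, which fell in liver, was at 9.50, 9.19, 9.34, 9.32 and 9.52 in unexposed lung, at 9.43, 9.35, 9.29, 9.38 and 9.31 at the lower dose and at 9.24, 9.16, 9.45, 9.39 and 9.29 at the higher dose (-0.02 and -0.07, SE 0.07).

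Lum had the largest change of any member in lung and the widest spread. It was at 7.35, 6.10, 6.63, 6.07 and 7.13 without PFOS, at 5.02, 7.77, 7.32, 8.20 and 7.39 at the lower dose and at 7.40, 7.50, 6.92, 7.79 and 7.32 at the higher dose. All 5 litters at the higher dose were above the unexposed mean, yet the groups overlapped (0.49, SE 0.45, adjusted p = 0.998, and 0.73, SE 0.45, adjusted p = 0.787). Skeletal muscle markers varied between the same lungs: the summed level of 6 of them was 8.62, 7.66, 7.25, 7.99 and 8.75 without PFOS, 6.98, 9.88, 8.78, 9.54 and 8.99 at the lower dose and 9.38, 8.98, 8.37, 9.34 and 9.89 at the higher dose. Litter 1 at the lower dose was lowest both in Lum and in the summed markers. Litter 4 at that dose was highest in Lum and in Myh3, an embryonic myosin, at 7.10, but not in the sum. Acta1 and Mylpf, also of these markers, were highest in litter 2 at that dose, at 8.55 and 7.51. Unexposed litter 1 had the highest Lum of its group and the lowest Myh3, at 2.57. Summed cardiac and smooth muscle markers varied between these lungs too. Litter 1 at the lower dose was lowest of all lungs in both, at 10.82 and 10.93. Unexposed litter 1 was highest of all lungs in the cardiac sum, at 13.68. Unexposed litter 4, lowest of its group in Lum, was highest of its group in the smooth muscle sum, at 11.40. None of the 6 skeletal muscle markers was called, and Myog, a muscle regulator, was below the 40th percentile in every lung group. The part of these muscle markers in the Lum values was not tested. Litter 1 at the lower dose was also low in Col1a1, at 9.21 against 9.87 to 10.79 in the other litters of its group.

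**Figure D4:**
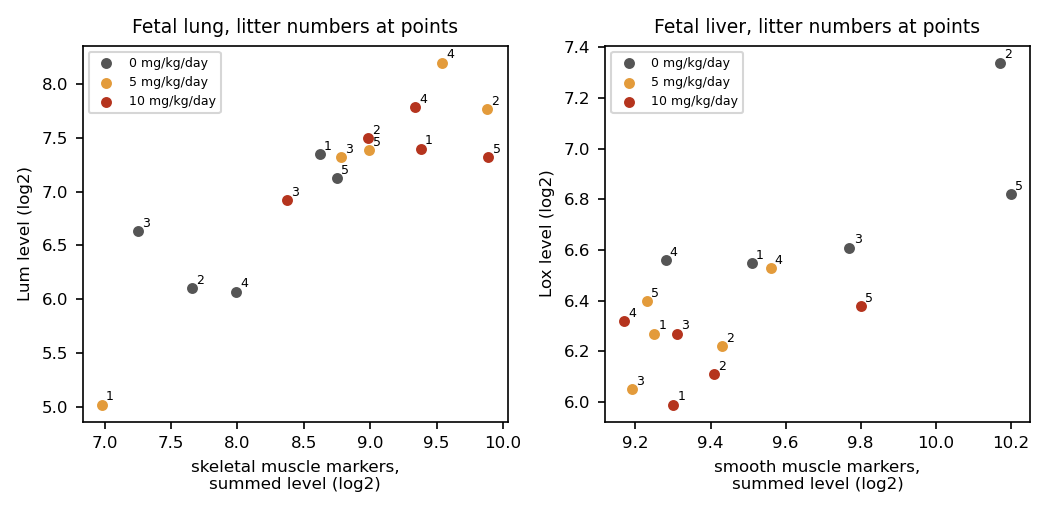
Left, Lum level against the summed level of 6 skeletal muscle markers (both log2) in each lung litter; right, Lox level against the summed level of 8 smooth muscle markers in each liver litter, coloured by dose and numbered by litter. In lung, litter 1 at 5 mg/kg/day is lowest on both axes; in liver, unexposed litters 2 and 5 are highest on both axes.

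Of the other matrix lists in lung, no gene was called at either dose. In each list in turn, the gene with the smallest p at the higher dose was Bmp1, the procollagen C-proteinase (-0.25, limma adjusted p = 0.594), the plasminogen activator Plat (0.19, adjusted p = 0.724), the integrin chain Itga8 (-0.25, adjusted p = 0.428), the latent TGF-beta binding protein Ltbp2 (-0.20, adjusted p = 0.552) and Npnt, nephronectin, a ligand of the integrin with that chain (-0.20, adjusted p = 0.402). Litters at the higher dose lay wholly below the unexposed ones for Itga8, Ltbp2 and Npnt. The same held for 0.597% of all 12897 genes tested in lung. Itga8, Ltbp2 and Npnt were picked by the smallest p of their lists, which favours such a separation, and none of them passed the test.

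The difference between tissues in the change itself was tested in 1 fit of all 30 arrays. Of 38 members, Col4a5 was the only one called, at both doses, where 2.05% (5 mg/kg/day) and 3.88% (10 mg/kg/day) of 13879 genes were called. Its liver change minus its lung change was -1.0 at the lower dose (SE 0.21, adjusted p = 0.00600 by limma) and -0.86 at the higher (SE 0.21, adjusted p = 0.0133). At the higher dose 2 members were called when unexposed liver 1 or 5, exposed liver 1 or 4 or unexposed lung 3 was left out. Without unexposed livers 2, 3 and 5 it was -0.63 (adjusted p = 0.202) and -0.49 (adjusted p = 0.296), and with its probe sets averaged it was -0.22 at the higher dose (adjusted p = 0.616). Lox had -0.41 at both doses (adjusted p = 0.286 and 0.220), Lamc1 0.31 and 0.41 (adjusted p = 0.324 and 0.0929), and Col14a1 -0.30 at the higher dose (adjusted p = 0.0796). For Lox, Col14a1, Col1a2 and Lamc1, a change called in liver and not in lung was thus not shown to differ between the tissues.

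The spread between litters bears on these readings. In unexposed liver the SD of members ran from 0.09 (Nid1) to 0.48 (Fbln1) with a median of 0.22, above the median of 0.13 for all tested genes, and at the higher dose the median was 0.15. In lung the members' median SD was 0.14, 0.14 and 0.11 with rising dose. Of 22 other member probe sets above the 40th percentile on all liver arrays, 18 had the same sign of change at the higher dose as the chosen one, and in lung it was 26 of 32.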

How the data were processed

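Values were deposited on a log2 scale, as the authors' RMA output, per the submitters' processing notes. Its version, and whether liver and lung were normalized jointly, is not given in the sources used here. Only RNA with an integrity number of 8 or more was hybridised, per the labels' protocols. RMA compresses changes of dim genes, and its normalization takes most genes as unchanged. Of 45101 probe sets, 34945 carry a single gene symbol, 932 several and 9160 none in the platform annotation, and 64 are the array maker's controls. Each gene was taken from the brightest (by mean over the 30 arrays) of its single-symbol probe sets.

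The 15 arrays of a tissue went into 1 limma fit (version 3.58.1, R 4.3.3) of 3 dose means; tissue differences came from 1 fit of 30 arrays with 6 group means. P-values are two-sided. The number of arrays limits the precision. A summed level is the log2 of the summed linear values of a list's markers. The members, classes and lists were chosen with earlier results of these data known, so their counts are descriptions. Named members are, per comparison, those called, filled up by smallest p to 6, plus each class's member with the smallest p; of each pathway list up to 3 called genes by size, or else that with the smallest p. Hspg2, Dcn, Ppib, the called markers and the members given by change alone were added after their values were seen. Same-numbered litters of different doses correlated between -0.25 and 0.31 within tissues in their deviations, so the numbers were not taken as pairs between doses. These correlations do not bear on whether liver and lung of the same number share a litter. Liver and lung were left unpaired in the main fit, and the alternative with the replicate number as a block paired them. The fits were tested on simulated data. Alternatives were no filter and a filter at the 60th percentile, quantile normalization, averaged probe sets, a trended and robust variance, the replicate number as a block, both tissues in 1 fit, and leaving out litters. Figures were drawn with matplotlib 3.10.9.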

Additional observations from a re-analysis of the deposited data

Results flagged for a closer look

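Values of single litters stood apart from the other 4 of their group, by a gap to the nearest above 0.71 of the group's range, in 12 of 228 member groups, and chance flags about 1 in 20 groups. In liver these were Col4a3 (4.14, litter 1) and Nid1 (9.25, litter 1) at 5 mg/kg/day, and Col3a1 (9.86, litter 5), Col4a3 (3.64, litter 3), Lama4 (4.09, litter 3), Lamb1 (7.43, litter 4) and Col13a1 (4.74, litter 4) at 10 mg/kg/day. In lung they were Col1a2 (12.14, litter 1) without PFOS, Lox (10.94, litter 3) and Lum (5.02, litter 1) at 5 mg/kg/day, and Col4a3 (7.70, litter 2) and Col6a2 (11.11, litter 5) at 10 mg/kg/day.

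The change of Col4a5 differed between liver and lung by limma's test of the difference, by -1.0 at the lower dose and -0.86 at the higher. It was not called at either dose without unexposed livers 2, 3 and 5 (-0.63 and -0.49). With averaged probe sets it was not called at the higher dose (-0.22).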

How the results depend on the processing

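No called value or count turned its direction under any alternative run. With a trended and robust variance Col5a1 joined the members lower in liver at 10 mg/kg/day. With the stricter filter Col5a1 was called there too, and Col4a5 was not tested. In liver at 10 mg/kg/day the count of members lower was 4, and 8 with both tissues in 1 fit (the 4 with Col3a1, Col4a4, Col5a2 and Tnc), 2 with averaged probe sets (Col3a1 and Col5a2, none of the 4), 0 without unexposed litters 2, 3 and 5 (an alternative chosen after seeing the data), and 3 to 5 with 1 litter left out; without a filter Col4a4 was called and Col1a2 was not; the 1 member higher became 0 without those litters, without a filter, with averaged probe sets and with the replicate block, and 0 to 1 with 1 litter left out. At 5 mg/kg/day the 2 members lower became 0 without those litters, 1 without a filter, with the stricter filter, with averaged probe sets and with the replicate block, and 1 to 3 with 1 litter left out; 1 member was higher with both tissues in 1 fit. Between 10 and 5 mg/kg/day 0 to 1 members were lower with 1 litter left out, the 1 without litter 4 at 10 mg/kg/day. For the difference between tissues, the 1 member became 0 without unexposed livers 2, 3 and 5 at both doses and 0 with averaged probe sets at 10 mg/kg/day, where leaving out 1 array gave 1 to 2. Of the 4 members higher in unexposed liver than lung, 2 were left without those livers, with averaged probe sets and with the stricter filter, and 2 to 4 with 1 litter left out. The cause was not tested, except that Col4a5 in liver, and Col11a1 and Col8a1 between tissues, are not in the test under the stricter filter, nor are the latter with averaged probe sets. In lung no member was called under any alternative run.

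Over all genes, calls differed by more than 1.5 times without unexposed livers 2, 3 and 5 (805 to 303 at 5 mg/kg/day, 1395 to 538 at 10 mg/kg/day, 285 to 172 for the difference between tissues at 5 mg/kg/day). The few calls in lung at 10 mg/kg/day went from 7 to 14 with both tissues in 1 fit, to 4 without a filter, with quantile normalization or with the replicate block, and to 3 with averaged probe sets; with both tissues in 1 fit the 2 in lung at 5 mg/kg/day became 4, and the 1 in liver between doses became 5 (0 with the replicate block). Replicate numbers of liver and lung were a hint of shared litters: in the unexposed and the 10 mg/kg/day groups all 5 livers correlated best with the lung of the same number (0.06 to 0.12 and 0.08 to 0.19), and 3 of 5 did at 5 mg/kg/day. Beside the calls above, the replicate block ended those of Col8a1 between unexposed tissues and of Efemp1 in liver at 10 mg/kg/day (adjusted p = 0.0587). Signal over background limits Col4a3, Col4a4, Col4a5 and Col11a1 in liver.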
